A study of Mus musculus with 12 samples.

Results

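The genes described here encode the subunits of oxidative phosphorylation, the protein complexes of the inner mitochondrial membrane that carry electrons from nutrients to oxygen and make ATP. They were taken by a name pattern, and the choice was made with earlier results of these data known. The pattern takes the Nduf subunits of complex I, the Sdh subunits of complex II, the Uqcr subunits of complex III, the Cox4 to Cox8 subunits of complex IV, the Atp5 subunits of complex V and the protein-coding mitochondrial genes. The pattern matched 115 gene names, of which 13 were dropped because the name carries the pseudogene suffix -ps. The remaining 102 of 48537 genes in the table comprise 89 nuclear-encoded and 13 mitochondrially encoded members. By complex, the nuclear members number 38, 4, 8, 21 and 18 for complexes I to V, with Ndufa4 and Ndufa4l2 placed in complex IV. The annotation (GENCODE M21) calls 98 members protein coding and 4 processed pseudogenes, namely Ndufb4c, Ndufs6b, Ndufa11b and Cox6c2. Names do not take in every subunit. Cyc1 of complex III and Ndufab1 of complex I fall outside the pattern and are given with the neighbouring pathways.

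Complexes I and II take electrons from NADH and succinate, coenzyme Q carries them to complex III, and cytochrome c carries them on to complex IV, where oxygen is reduced. Complexes I, III and IV pump protons, and complex V, the ATP synthase, lets them flow back to make ATP. Most subunits are encoded in the nucleus and imported, whereas the mitochondrial genome encodes core membrane subunits of complexes I, III, IV and V, is transcribed as long RNAs from both strands and is cut into individual transcripts. Complex II is built of nuclear-encoded subunits alone. In liver these complexes serve fatty acid oxidation, glucose synthesis and urea synthesis. REV-ERBalpha (Nr1d1) and REV-ERBbeta (Nr1d2) are heme-binding nuclear receptors of the circadian clock that repress transcription.

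RNA was sequenced from 12 mouse livers collected at zeitgeber time 10, in 3 groups of 4. The first group was labelled REV-ERBs double-knockout, with DKO and YFP in its titles and YFP and Cre in its column names. The second was labelled as re-expressing REV-ERBalpha, with DKO and REV-ERBalpha-WT in its titles and YFP and WT in its column names. The third was labelled wild type, with YFP in titles and columns, and is called control below. No label states the delivery of YFP, Cre or REV-ERBalpha, the strain, or the age and sex of the mice, and effects of Cre and of the loss of the receptors cannot be told apart in the contrast of the first group with the third. Each library was made by a strand-specific total RNA kit from a liver that the protocol calls a biological replicate.

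The libraries held between 5621667 and 6906221 reads assigned to genes. Expression is given as TPM, a unit of transcript abundance per length that sums to the same total in every library. Nr1d1 measured 74.8 to 91.7 TPM in livers labelled DKO, 171 to 217 TPM in re-expression livers and 64.1 to 76.2 TPM in control livers. Nr1d2 measured 83.7 to 99.6, 84.4 to 119 and 82.3 to 111 TPM in the same order of groups. Neither gene was called lower in livers labelled DKO. Since the deleted stretch is not named, TPM over the whole gene is no check of the label. The 8 hepatocyte markers summed to 49724 to 53042 TPM in livers labelled DKO, 51452 to 53770.2 TPM in re-expression livers and 48059 to 51901 TPM in control livers. In whole tissue, fewer cells of a type and less RNA per cell cannot be told apart.

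Nuclear-encoded subunit RNA summed higher in every liver labelled DKO than in any control liver, while mitochondrially encoded subunit RNA overlapped between the groups. Summed over the nuclear members, the level was 19561, 18537, 18983 and 17583 TPM in livers labelled DKO, 16161, 16411, 16772 and 17781 TPM in re-expression livers and 13487, 15586, 15155 and 16762 TPM in control livers. All 4 livers labelled DKO lay above all 4 control livers, and the re-expression livers overlapped both. The means were 18666 ± 835, 16781 ± 712 and 15247 ± 1356 TPM in livers labelled DKO, re-expression livers and control livers (SD, n = 4 each), so that the first was 1.22 times the last. This was 1.87%, 1.68% and 1.52% of all TPM.

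Summed over the 13 mitochondrially encoded members, the level was 32144, 37247, 33142 and 38874 TPM in livers labelled DKO, 37917, 37083, 32533 and 34340.2 TPM in re-expression livers and 38409.6, 36892, 36139 and 35099.5 TPM in control livers. The 3 groups overlapped throughout, with means of 35352 ± 3223, 35469 ± 2483 and 36635 ± 1393 TPM. The ratio of mitochondrial to nuclear summed TPM in livers labelled DKO was 1.64, 2.01, 1.75 and 2.21. It was 2.35, 2.26, 1.94 and 1.93 in re-expression livers, against 2.85, 2.37, 2.38 and 2.09 in control livers. The highest ratio among livers labelled DKO exceeded the lowest control ratio, and the lowest 3 of the livers labelled DKO lay under every control liver. The mean ratios were 1.9 ± 0.26, 2.1 ± 0.22 and 2.4 ± 0.31 (SD, n = 4 each). Without mt-Atp8, whose TPM rests on few reads, they were 1.71, 1.93 and 2.21 in the same order, an alternative added after the data were seen. No test was run on these sums, since they are scores over chosen genes.

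**Figure D1:**
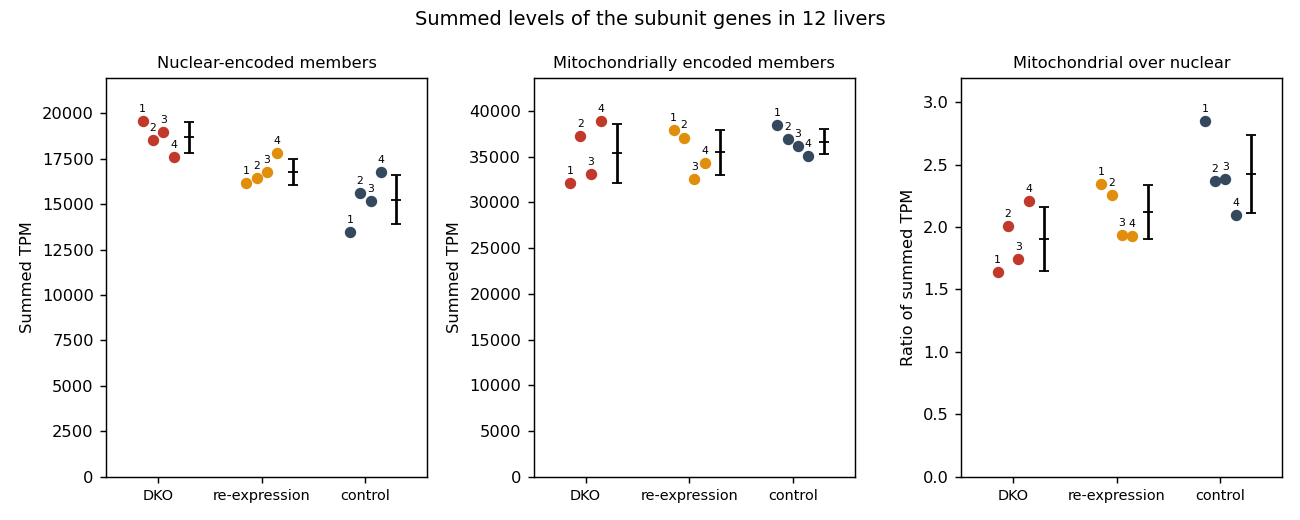
Summed TPM of the 89 nuclear-encoded members (left), of the 13 mitochondrially encoded members (middle) and the ratio of both sums (right) in each liver, with the replicate number above each point and the mean ± SD (n = 4) beside it. In the left panel the 4 livers labelled DKO lie above the 4 control livers, and in the middle panel the groups overlap.

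Gene by gene, 83 nuclear and all 13 mitochondrial members had a mean of at least 1 TPM and were tested with limma on log2(TPM + 1) among 17957 genes, with Benjamini-Hochberg adjustment over all of them. A gene is said to be called where its adjusted p was under 0.05. Between livers labelled DKO and control livers, 29 of the 83 nuclear members were called higher and 0 lower, while 2.99% of all tested genes were called higher and 2.34% lower. The change was above 0 for 80 of 83 members, against 50.2% of all tested genes. Their median change was 0.30 on the log2 scale, which is 1.23 fold, where the median of all genes was 0.0011. For 39 members every liver labelled DKO lay above every control liver, as for 6.13% of all tested genes. At an unadjusted p under 0.05 there were 51 members, against 18.4% of all genes.

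All complexes contributed. The called members were 10 of 38 tested in complex I, 3 of 4 in complex II, 2 of 8 in complex III, 5 of 16 in complex IV and 9 of 17 in complex V. The median log2 changes were 0.30, 0.30, 0.33, 0.26 and 0.31 for complexes I to V. The called members changed by 0.23 to 0.48 on the log2 scale. The size of the count depends on single livers. Without livers labelled DKO 1, 2, 3 or 4 it was 8, 12, 14 and 15, and without control liver 1 or control liver 3 it was 15 each, whereas the median change stayed between 0.24 and 0.33 under every alternative run.

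**Figure D2:**
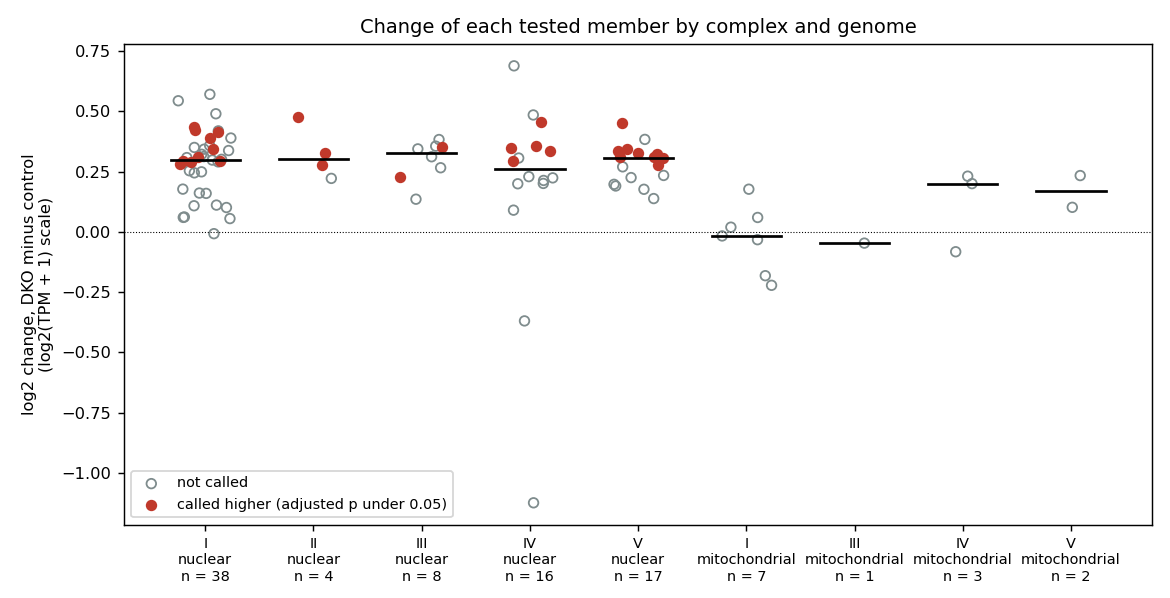
The log2 change of each tested member between livers labelled DKO and control livers, on the log2(TPM + 1) scale, by complex and by the genome that encodes it; red points are called and bars mark medians. All 29 called members are nuclear and lie between 0.23 and 0.48.

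In complex I, the entry point for electrons from NADH, Ndufb9 and Ndufb3, accessory subunits of the membrane arm, had the smallest p of all members. Ndufb9 measured 262, 243, 231 and 247 TPM in livers labelled DKO, 211, 206, 189 and 215 TPM in re-expression livers and 175, 188, 188 and 180.4 TPM in control livers. The groups stood in steps with no overlap among all 3, and the change from control was 0.42 ± 0.060 (log2, SE; limma adjusted p = 0.00198). Ndufb3 measured 188, 212, 225 and 217 TPM in livers labelled DKO, 179, 181, 168 and 189 TPM in re-expression livers and 142, 166, 159.6 and 154 TPM in control livers. Its lowest liver labelled DKO stood just under the highest re-expression liver and above all control livers, with a change of 0.43 ± 0.073 (adjusted p = 0.00518). Of the 50-base stretches of Ndufb9, 23.4% also occur in another annotated gene, as do 6.72% of those of Ndufb3. The share was over 20% for 7 of the 29 called members, with 39.7% for Ndufs3, 37.0% for Ndufb4, 34.9% for Atp5o, 31.1% for Ndufs5, 25.9% for Cox5b and 24.8% for Uqcrc2 beside Ndufb9. Part of the reads of these genes may be shared.

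Ndufa10, an accessory subunit, measured 147, 139, 139 and 133 TPM in livers labelled DKO and 112, 127, 106 and 112 TPM in control livers, 0.29 ± 0.062 apart (adjusted p = 0.0209). Also called in this complex were Ndufs5 (0.31), Ndufs6 (0.29), Ndufb4 (0.35), Ndufb10 (0.39), Ndufa5 (0.42) and Ndufs3 (0.28, log2 changes), of which Ndufs3 is a core subunit. The 2 nuclear members of complex I with the highest TPM were not called. Ndufa1 averaged 514 ± 36.3 TPM in livers labelled DKO and 456 ± 52.5 TPM in control livers (SD, n = 4 each; change 0.18, adjusted p = 0.378), and Ndufa2 averaged 394 ± 31.1 and 316 ± 74.6 TPM in the same order (change 0.34, adjusted p = 0.255).

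Complex II is succinate dehydrogenase, which also works in the citric acid cycle. Sdha, its flavoprotein, measured 489, 462, 468 and 469 TPM in livers labelled DKO, 458, 414, 399 and 433 TPM in re-expression livers and 359, 396, 358 and 391 TPM in control livers. Re-expression livers lay above control livers and under livers labelled DKO with no overlap on either side. The change of livers labelled DKO from control was 0.33 ± 0.061 (adjusted p = 0.00989). Sdhb, the iron-sulfur subunit, measured 260.3, 254, 263 and 231 TPM in livers labelled DKO, 188, 219, 217 and 244 TPM in re-expression livers and 154, 188, 175 and 209.7 TPM in control livers. It had the largest change of the called members, 0.48 ± 0.10 (adjusted p = 0.0197), with a wide spread among control livers. Sdhd, a membrane anchor, measured 502, 484, 449.5 and 447 TPM in livers labelled DKO, 417, 433, 439 and 429 TPM in re-expression livers and 362, 395, 392.2 and 401 TPM in control livers. Livers labelled DKO stood above both other groups, by 0.28 ± 0.058 over control (adjusted p = 0.0177). Sdhc, the other anchor, was not called, with a change of 0.22 ± 0.061 (adjusted p = 0.0599).

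Complex III passes electrons from coenzyme Q to cytochrome c. Its called members were Uqcrc2, a core protein, and Uqcrfs1, the Rieske iron-sulfur protein. Uqcrc2 measured 300.4, 280.2, 283 and 301 TPM in livers labelled DKO, 298, 253, 245 and 254 TPM in re-expression livers and 236, 251, 207 and 220.3 TPM in control livers. All livers labelled DKO lay above all control livers, by 0.35 ± 0.079 (adjusted p = 0.025). Uqcrfs1 changed by 0.23 ± 0.056 (adjusted p = 0.036). Uqcr11 and Uqcr10, small accessory subunits with the most TPM of this complex, were not called. Uqcr11 measured 645, 505, 614 and 377 TPM in livers labelled DKO, 321, 515, 559 and 613 TPM in re-expression livers and 235, 354, 509 and 616 TPM in control livers. Its control livers alone spanned from the lowest to nearly the highest value, and the change of 0.38 had an SE of 0.30 (adjusted p = 0.553). Uqcr10 averaged 441 ± 48.5 TPM in livers labelled DKO, 389 ± 60.9 TPM in re-expression livers and 363 ± 91.9 TPM in control livers.

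Complex IV, cytochrome c oxidase, had 5 called members. Cox7a2, an isoform of subunit VIIa, measured 456, 391, 443 and 409 TPM in livers labelled DKO, 387, 373, 390.5 and 393 TPM in re-expression livers and 342, 345, 313 and 325 TPM in control livers. Re-expression livers lay above all control livers, and livers labelled DKO exceeded control livers by 0.35 ± 0.062 (adjusted p = 0.00688). Cox7b, an accessory subunit, measured 330.0, 309, 309.9 and 314 TPM in livers labelled DKO, 284, 286, 258 and 288 TPM in re-expression livers and 238, 274, 267 and 252 TPM in control livers. Livers labelled DKO were above both other groups, by 0.29 ± 0.062 over control (adjusted p = 0.0192). Cox6b1, which faces the intermembrane space and has the most TPM of the nuclear members of this complex, measured 891, 847, 893 and 799 TPM in livers labelled DKO, 713, 689, 726 and 790.2 TPM in re-expression livers and 582, 718, 649 and 779 TPM in control livers. Livers labelled DKO were above all control livers, by 0.34 ± 0.088 (adjusted p = 0.0493), a call kept in 4 of 25 alternatives. Cox5a (0.35 ± 0.086, adjusted p = 0.0395) and Cox5b (0.46 ± 0.10, adjusted p = 0.0282) completed the called members. Cox6a1, with a difference of 0.31 ± 0.19 (adjusted p = 0.444), was not called. Cox7a2l, a factor that joins complexes III and IV into supercomplexes, was not called either, at 0.090 ± 0.085 (adjusted p = 0.646).

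Complex V had the largest number of called members outside complex I. Atp5b, the catalytic beta subunit, measured 783, 752, 756 and 769 TPM in livers labelled DKO, 728, 682, 699 and 705 TPM in re-expression livers and 584, 648, 599 and 640.4 TPM in control livers. The 3 groups did not overlap, and livers labelled DKO exceeded control livers by 0.31 ± 0.053 (adjusted p = 0.00594). Atp5a1, the alpha subunit and the nuclear member with the highest mean TPM, measured 1044, 1009.7, 1048 and 1014 TPM in livers labelled DKO, 901, 917, 943 and 985 TPM in re-expression livers and 727, 824, 839 and 907 TPM in control livers. Only the highest control liver overlapped the re-expression livers, and livers labelled DKO stood above both groups, by 0.32 ± 0.068 over control (adjusted p = 0.0191).

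The membrane part of the ATP synthase showed the same direction. Atp5k, the e subunit, which takes part in joining synthases into dimers, measured 498, 456, 520.2 and 503 TPM in livers labelled DKO, 396, 401, 345 and 435 TPM in re-expression livers and 312, 407, 353 and 379 TPM in control livers. Re-expression and control livers overlapped, and both lay under livers labelled DKO, by 0.45 ± 0.093 for control (adjusted p = 0.0169). Atp5mpl, a small subunit of the membrane part, measured 151, 145, 139.9 and 144 TPM in livers labelled DKO, 123, 121, 121 and 115 TPM in re-expression livers and 117, 124, 109 and 110.1 TPM in control livers. It too was higher in livers labelled DKO than in either other group, by 0.33 ± 0.058 over control (adjusted p = 0.00637). Atp5pb, the b subunit of the peripheral stalk, changed by 0.33 ± 0.068 (adjusted p = 0.0179), and Atp5o (0.34), Atp5c1 (0.31) and Atp5md (0.28) were also called. Atp5o and Atp5c1 belong to the stalks of the synthase.

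The c subunit, whose ring turns as protons pass, is encoded by 3 genes that give the same mature protein. Atp5g3 measured 297, 299, 311 and 295 TPM in livers labelled DKO, 271, 261, 257 and 269 TPM in re-expression livers and 222, 247, 232 and 271 TPM in control livers, and was called (0.31 ± 0.064, adjusted p = 0.0177). Atp5g1 averaged 86.0 ± 6.94 TPM in livers labelled DKO and 73.8 ± 13.8 TPM in control livers, with a change of 0.23 ± 0.12 (adjusted p = 0.361). Atp5g2 averaged 75.7 ± 8.25 and 68.4 ± 3.78 TPM in the same order, with a change of 0.14 ± 0.11 (adjusted p = 0.571). By TPM, which is per length, Atp5g3 held the most RNA of the 3 in every library, while the difference between the 3 changes was not tested.

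**Figure D3:**
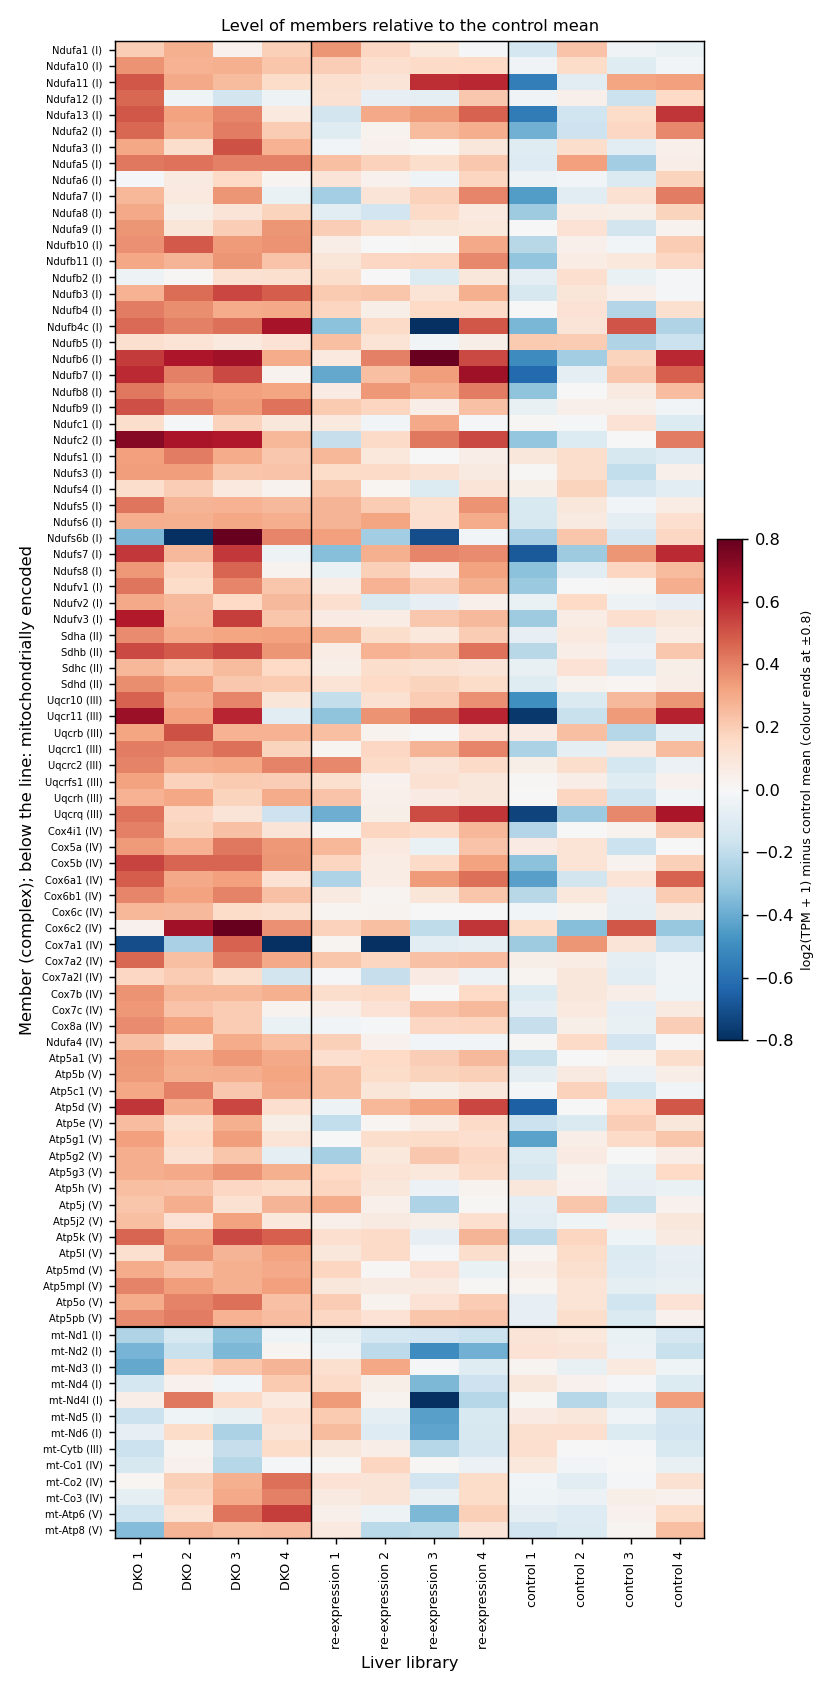
Level of members with a mean of at least 5 TPM (79 nuclear above the line, 1 of the 80 not being shown, and 13 mitochondrial below it) in each liver, as log2(TPM + 1) minus the control mean, with complexes in parentheses. Red prevails in the 4 livers labelled DKO above the line, and control livers 1 and 4 differ most for Uqcrq, Uqcr11 and Ndufs7.

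Control livers differed among themselves in some members. The log2 ratio of control livers 3 and 4 over control livers 1 and 2 was 1.04 for Uqcrq, 0.96 for Ndufs7, 0.93 for Uqcr11, 0.81 for Ndufb6 and 0.72 for Ndufa13, none of them called. Among the 80 nuclear members with a mean of at least 5 TPM it ran from -0.42 to 1.04. It was correlated across genes with the GC content of the longest transcript (Pearson r = 0.52, n = 80 members, which share these libraries), and the same held over 10872 genes (r = 0.51), where genes are no independent replicates. The 29 called members had a median ratio of 0.0078 and a median SE of 0.072, against 0.14 and 0.11 for the 51 others. Control liver 1 was the lowest of all 12 libraries for 42 of the 83 tested nuclear members, a share of 50.6%, against 11% of all tested genes. With the trend on GC content removed in each library, an alternative added after the data were seen, 30 nuclear members were called, of which 24 are among the 29. Cox7b and Atp5pb were not called under it (adjusted p = 0.0872 and 0.0669).

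**Figure D4:**
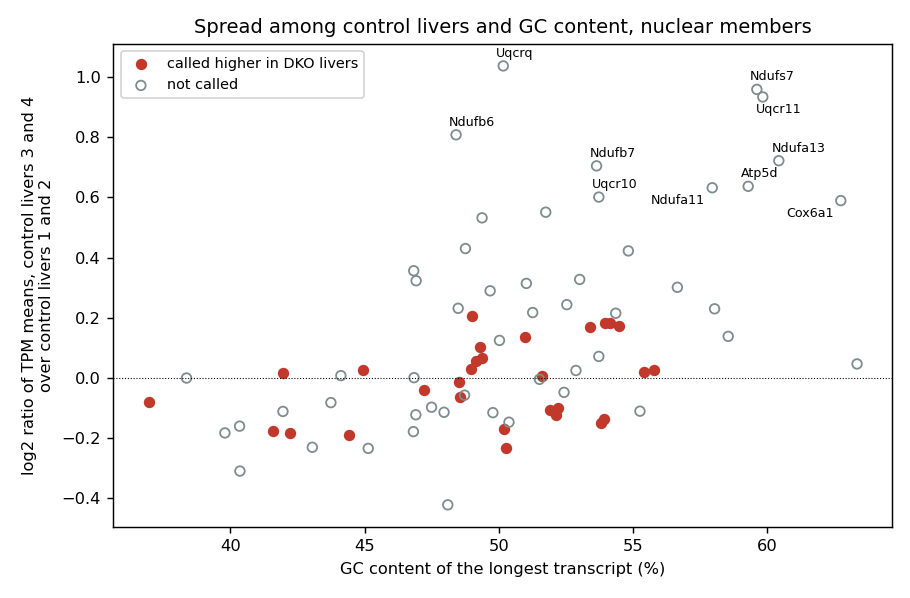
For the 80 nuclear members with a mean of at least 5 TPM, the log2 ratio of the TPM means of control livers 3 and 4 over control livers 1 and 2 against the GC content of the longest transcript. The members with the highest ratios, named in the plot, are not called.

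The re-expression livers gave no call among the nuclear members. Against livers labelled DKO, 0 of 83 were called in limma, where 0.0724% of all genes (13) were called. At an unadjusted p under 0.05 there were 27 members, against 6.19% of all genes. The change was under 0 for 77 members and above 0 for 6, where 53.4% of all genes were above 0, the median was -0.15, and for 26 members all re-expression livers lay under all livers labelled DKO, against 2.16% of all genes. The smallest p belonged to Atp5mpl (-0.27 ± 0.058, adjusted p = 0.173), followed among named members by Ndufb9 (-0.26 ± 0.060, adjusted p = 0.223) and Atp5k (-0.33 ± 0.093, adjusted p = 0.371).

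Against control livers, 0 of 83 nuclear members were called in re-expression livers, where 1.82% of all genes were. There were 15 members at an unadjusted p under 0.05, against 12.5% of all genes, and 77 changes above 0, where 52.1% of all genes were, with a median of 0.13. For 8 members all re-expression livers lay above all control livers, as for 4.29% of all genes. Atp5b (0.19 ± 0.053, adjusted p = 0.116) and Cox7a2 (0.22 ± 0.062, adjusted p = 0.119) were nearest to the threshold among the named members. These comparisons share livers with the first, so their values are set side by side and are no separate evidence. A call missed does not show that the groups are alike.

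The mitochondrially encoded members were called in none of the 3 comparisons, 0 of 13 each, where 5.33%, 0.0724% and 1.82% of all genes were called in either direction. Between livers labelled DKO and control livers their changes ran from -0.22 for mt-Nd2 to 0.23 for mt-Atp6 with a median of 0.020, and 2 of 13 had an unadjusted p under 0.05, against 18.4% of all genes. In re-expression livers the medians were -0.083 against livers labelled DKO and -0.059 against control livers.

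Reading these genes needs their sequence, because a stretch of mouse chromosome 1 carries nuclear copies of the mitochondrial genome. The table lists 7 annotated copies (Gm28439, Gm10222, Gm28438, Gm28437, Gm10925, Gm28661 and Gm29216), which align to mt-Nd4, mt-Nd4l, mt-Nd3, mt-Co3, mt-Atp6, mt-Co2 and mt-Co1. Copy and gene differ at 0 of 681 aligned bases for mt-Co2, 0 of 783 for mt-Co3 and 0 of 678 for mt-Atp6. They differ at 0 of 876 for mt-Nd4, 0 of 294 for mt-Nd4l, 6 of 492 for mt-Co1 and at 1 of 345 for mt-Nd3. The stretch with that difference is shown in capitals, for mt-Nd3 on the plus strand at chrM:9460-9519 and for its copy on the minus strand at chr1:24613059-24613118 (mm10, GENCODE M21 transcripts):
mt-Nd3: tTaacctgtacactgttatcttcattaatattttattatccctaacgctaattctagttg
Gm28438: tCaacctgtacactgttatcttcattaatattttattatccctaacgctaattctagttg
The other 59 bases are the same, so within this stretch the capital alone tells a read of the gene from a read of the copy. The copies took 40.5% to 43.9% of the reads on mt-Co2 and its copy together, 43.2% to 47.9% for mt-Co3 and 46.8% to 53.0% for mt-Atp6, over the 12 libraries, against 1.5% to 2.53% for mt-Co1. Their share was 26.7% to 47.8% for mt-Nd4l, 33.2% to 42.9% for mt-Nd3 and 4.2% to 6.59% for mt-Nd4. For the genes whose bases are the same in both places, gene and copy cannot be told apart in these counts.

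Among the mitochondrial genes, mt-Co1, the catalytic core of complex IV, measured 11757, 13153, 10948 and 12787 TPM in livers labelled DKO, 12932, 14445, 12905 and 12439.6 TPM in re-expression livers and 13614, 12677, 12791 and 12324 TPM in control livers. It had the highest TPM of all members in every group and the groups overlapped (-0.082 ± 0.081, adjusted p = 0.663). mt-Cytb, the cytochrome b of complex III, measured 4285, 4888, 4233 and 5344 TPM in livers labelled DKO, 5142, 5010.3, 4122 and 4389 TPM in re-expression livers and 5293, 4806, 4795 and 4421 TPM in control livers. These too overlapped (-0.047 ± 0.10, adjusted p = 0.867).

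Of the complex I core subunits, mt-Nd1 measured 4261, 4597, 4011 and 4921 TPM in livers labelled DKO, 4834, 4569.9, 4530.2 and 4456 TPM in re-expression livers and 5405, 5333, 4853 and 4575 TPM in control livers. mt-Nd2 measured 2234, 2555, 2251 and 2937 TPM in livers labelled DKO, 2831, 2503, 2037 and 2212 TPM in re-expression livers and 3132, 3109.6, 2803 and 2556 TPM in control livers. For both, control livers had the highest mean of the 3 groups, with overlap, and changes from control of -0.18 ± 0.081 for mt-Nd1 (adjusted p = 0.261) and -0.22 ± 0.12 for mt-Nd2 (adjusted p = 0.377) in livers labelled DKO. mt-Nd4, mt-Nd5 and mt-Nd6 differed from control by 0.020, -0.032 and -0.017, mt-Nd3 by 0.060 and mt-Nd4l by 0.18, each less than 1 SE from 0. Of these, mt-Nd3, mt-Nd4 and mt-Nd4l have a listed nuclear copy.

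The genes mt-Co2, mt-Co3 and mt-Atp6, each identical to a nuclear copy over the aligned bases, stood an order of magnitude under mt-Co1. mt-Co2 measured 581, 655, 701 and 779 TPM in livers labelled DKO, 624, 618, 517 and 638 TPM in re-expression livers and 566, 541, 572 and 625 TPM in control livers, and its copy Gm28661 measured 453, 507, 549 and 598 TPM in livers labelled DKO, 487, 484, 354 and 481 TPM in re-expression livers and 432, 425, 446 and 479 TPM in control livers. The differences between livers labelled DKO and control livers were 0.23 for the gene and 0.23 for the copy, neither called (adjusted p = 0.23 and 0.306). mt-Co3 measured 589.7, 700.2, 769 and 825 TPM in livers labelled DKO, 654, 667, 597 and 691 TPM in re-expression livers and 607, 602, 643 and 639 TPM in control livers. mt-Atp6, the a subunit of the ATP synthase, measured 309, 372, 464 and 507 TPM in livers labelled DKO, 354, 335, 268 and 393 TPM in re-expression livers and 327, 321, 353 and 382 TPM in control livers. In both genes the liver labelled DKO 1 lay under all control livers while livers labelled DKO 3 and 4 lay above them. Their differences from control were 0.20 ± 0.094 and 0.23 ± 0.15, beside 0.22 and 0.22 in their copies.

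mt-Atp8 measured 2547, 3913, 3833 and 3856 TPM in livers labelled DKO, 3429, 2792, 2823 and 3494 TPM in re-expression livers and 2916, 3013, 3289.5 and 3843 TPM in control livers. These values rest on a mean of 39.2 reads per library. The gene is 204 bases long and the deposited TPM used the length less a fixed number of bases, which leaves a very small divisor, so its TPM cannot be ranked against longer genes. The mitochondrial ribosomal RNAs, also products of the same genome, summed to 28892, 34396, 23966 and 34917 TPM in livers labelled DKO, 35242, 29261, 28107 and 28998 TPM in re-expression livers and 33371, 35416, 32771 and 32245 TPM in control livers, and neither was called. Leaving mt-Co1, mt-Co2, mt-Co3, mt-Atp6, mt-Atp8, mt-Nd1 and mt-Nd2 out of the mitochondrial sum gave mean ratios to the nuclear sum of 0.587 in livers labelled DKO, 0.632 in re-expression livers and 0.731 in control livers. This does not remove the genes with nuclear copies, since mt-Nd3, mt-Nd4 and mt-Nd4l stayed in and mt-Nd1, mt-Nd2 and mt-Atp8 have no listed copy. With the listed copies added to the mitochondrial sum instead, the mean ratios were 2.09, 2.29 and 2.61 in the same order of groups. That alternative was added after the data were seen. Reads that fit gene and copy equally, if left uncounted, would be missing from the sum with copies added too.

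**Figure D5:**
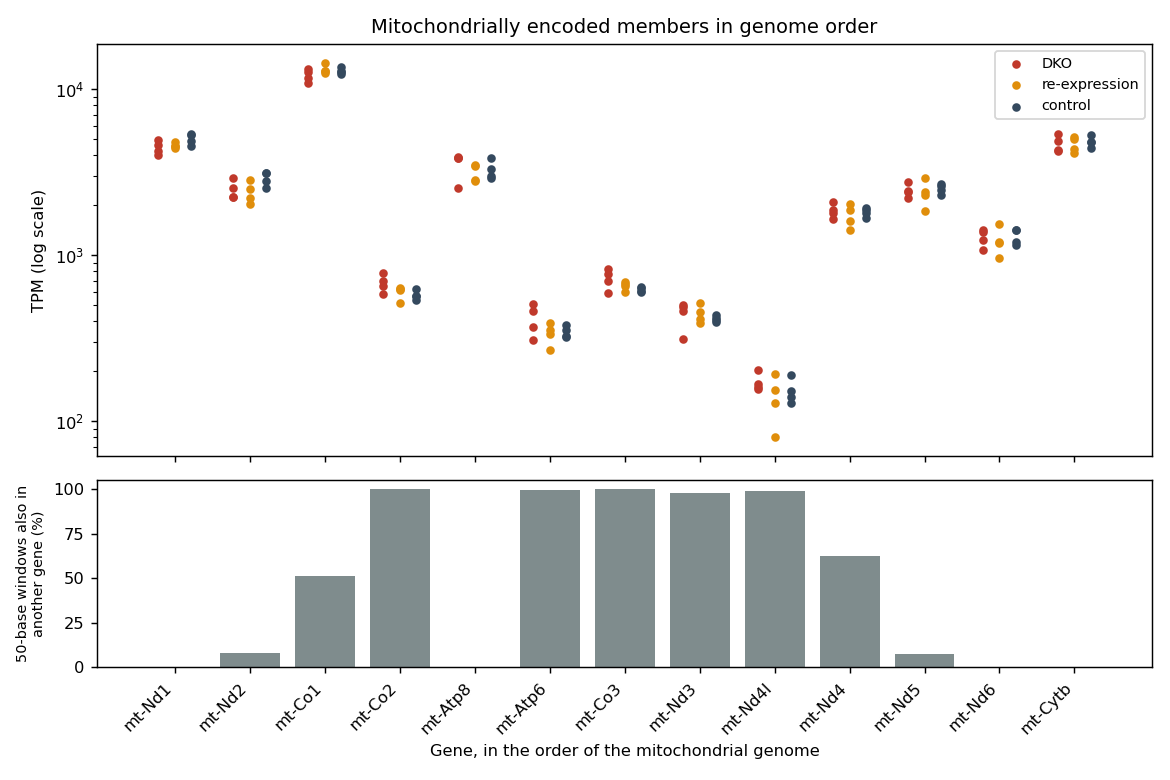
TPM of the 13 mitochondrially encoded members in each liver, on a log axis, in the order of the mitochondrial genome (top), and the share of 50-base windows of each gene that occur in another annotated gene (bottom). The genes with shares near 100% (mt-Co2, mt-Atp6, mt-Co3, mt-Nd3 and mt-Nd4l) have the lowest TPM, and the groups overlap for every gene. How reads that fit several places were counted is not given, so the TPM of these genes cannot be ranked against the others.

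Isoforms that belong to other tissues were near 0. Cox7a1, the muscle form of subunit VIIa, averaged 5.06 ± 2.85 TPM in livers labelled DKO, 5.14 ± 1.81 TPM in re-expression livers and 6.37 ± 1.48 TPM in control livers. Cox8b, a muscle and brown fat form, was listed between 0 and 5.17 TPM (0 to 2 reads) in 11 libraries and at 12.3 TPM (5 reads) in re-expression liver 4. In that liver alone skeletal muscle markers summed to 28.4 TPM, against at most 1.61 TPM in any other library, with Myh4 at 7.03 TPM there and at 0 in the 11 others. Cox6a2, another muscle form, was listed at 0.825 TPM in that liver, which is 1 read, and at 0 in the 11 others. Ndufa4l2, induced by low oxygen, averaged 3.63 ± 0.91, 3.85 ± 1.03 and 2.24 ± 2.01 TPM in livers labelled DKO, re-expression and control livers and was not called. The 6 members under the filter were Cox4i2, a lung form, Cox6a2, Cox6b2, a testis form, Cox7b2, Cox8c and the second gene model named Atp5o, of which the last 3 had no read in any library. The 4 pseudogenes were not called, with Ndufb4c at 16.6 ± 1.46 TPM in livers labelled DKO, 10.7 ± 5.37 TPM in re-expression livers and 11.9 ± 3.62 TPM in control livers.

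Other genes of mitochondrial energy metabolism, from lists chosen for this pathway, were compared between livers labelled DKO and control livers, where 2.99% of all tested genes were called higher and 2.34% lower. Their shares were not tested against those of the nuclear members. Of 4 subunits and carriers outside the name pattern, Cyc1, the cytochrome c1 of complex III, was called (0.42 ± 0.11, adjusted p = 0.0464), and cytochrome c (Cycs) was not called, at 0.26 ± 0.11 (adjusted p = 0.211). Of 48 assembly factors, 15 for complex I, 10 for complexes II and III, 19 for complex IV and 4 for complex V, 0 were called, with median changes of 0.17, 0.038, 0.11 and 0.12. Of 10 coenzyme Q synthesis genes, 1 was called. Coq8a, a kinase-like protein needed for coenzyme Q synthesis, measured 299, 328, 331 and 292 TPM in livers labelled DKO, 204, 239, 196 and 259.7 TPM in re-expression livers and 79.8, 97.7, 115 and 128 TPM in control livers. The 3 groups did not overlap, and Coq8a was called against control livers in both contrasts, livers labelled DKO (1.58 ± 0.14, adjusted p = 5.97e-05) and re-expression livers (1.10 ± 0.14, adjusted p = 0.00179). Of 17 genes of the citric acid cycle and pyruvate dehydrogenase, Suclg1 (0.32, adjusted p = 0.0173) and Idh3b (0.32, adjusted p = 0.0193) were called higher.

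Of 8 other electron donors, Etfdh and Etfa, which pass electrons from fatty acid oxidation to coenzyme Q, were called higher (0.38 and 0.35, adjusted p = 0.0316 and 0.0434). Of 14 carriers, pores and chaperones, 4 were called higher, among them Slc25a3, the phosphate carrier (0.29, adjusted p = 0.0114), and Slc25a4, an ADP/ATP carrier (0.64, adjusted p = 0.044). Timm23 and Phb were the others, and Ucp2, an uncoupling protein homologue, was called lower (-0.70, adjusted p = 0.0256). Of 76 mitochondrial ribosomal proteins, Mrps31 and Mrps2 were called higher, a share near that of all tested genes, and of 15 genes of mitochondrial DNA copying and transcription, Twnk, the DNA helicase (0.42, adjusted p = 0.0345). Of 12 genes of mitochondrial RNA processing and 9 nuclear regulators of respiratory genes, 0 were called. Ppargc1a, a coactivator that induces respiratory genes, measured 5.19, 4.12, 4.29 and 4.56 TPM in livers labelled DKO, 5.16, 6.17, 6.32 and 3.23 TPM in re-expression livers and 8.93, 8.19, 7.29 and 5.37 TPM in control livers, with a change of -0.59 ± 0.19 in livers labelled DKO (adjusted p = 0.112).

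Promoter sequence (250 bases before to 50 after the start, RefSeq, GRCm38.p6) was found for 68 of the nuclear members. Letters bound by known regulators of respiratory genes were searched on both strands. The NRF1 core GCATGCGC was present in 10 of 68 members (14.7%) and in 3.93% of 17491 protein-coding genes, a gene counting if any of its promoters matched. The YY1 letters AAGATGGCG were in 7 members (10.3%) and 2.14% of those genes, the ETS letters CCGGAAGT in 5 members (7.35%) and 5.69%, and the ROR element letters TAGGTCA, which REV-ERB receptors also bind, in 3 members (4.41%) and 2.7%. The ERR letters TCAAGGTCA were in 2 members (2.94%) and 0.377% of those genes. The NRF1, YY1, ETS and ROR element letters also occurred in members that were not called. Of the called members named above, Cox7b and Ndufb10 hold the ROR element letters, Ndufs3 the ETS letters and Ndufs6 the YY1 letters. Sdhd and Atp5g3 hold the ERR letters, on the strand opposite to the gene, and Sdhb and Atp5k the NRF1 letters. These 4 promoters are shown 5′ to 3′ on the strand of the gene with the match in capitals (in Atp5k, overlapping matches on both strands), at chr9:50603800-50604099 (minus strand) for Sdhd, chr2:73911277-73911576 (minus) for Atp5g3, chr4:140961021-140961320 (plus) for Sdhb and chr5:108434350-108434649 (minus) for Atp5k:
Sdhd: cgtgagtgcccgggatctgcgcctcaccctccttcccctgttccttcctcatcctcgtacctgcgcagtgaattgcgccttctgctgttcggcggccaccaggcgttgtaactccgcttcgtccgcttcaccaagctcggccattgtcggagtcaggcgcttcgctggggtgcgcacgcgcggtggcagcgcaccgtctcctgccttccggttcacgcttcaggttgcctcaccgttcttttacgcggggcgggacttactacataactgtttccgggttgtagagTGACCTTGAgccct
Atp5g3: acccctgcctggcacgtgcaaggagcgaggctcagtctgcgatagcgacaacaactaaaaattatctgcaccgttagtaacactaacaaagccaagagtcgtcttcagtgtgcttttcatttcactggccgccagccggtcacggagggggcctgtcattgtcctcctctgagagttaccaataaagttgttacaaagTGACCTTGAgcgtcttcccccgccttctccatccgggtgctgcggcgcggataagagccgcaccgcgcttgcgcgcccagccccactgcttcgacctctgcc
Sdhb: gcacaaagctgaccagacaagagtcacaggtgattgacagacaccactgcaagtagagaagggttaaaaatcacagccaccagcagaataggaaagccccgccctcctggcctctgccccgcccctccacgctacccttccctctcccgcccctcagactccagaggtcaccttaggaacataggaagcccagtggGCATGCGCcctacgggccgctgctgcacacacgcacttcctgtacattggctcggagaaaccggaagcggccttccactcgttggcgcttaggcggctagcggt
Atp5k: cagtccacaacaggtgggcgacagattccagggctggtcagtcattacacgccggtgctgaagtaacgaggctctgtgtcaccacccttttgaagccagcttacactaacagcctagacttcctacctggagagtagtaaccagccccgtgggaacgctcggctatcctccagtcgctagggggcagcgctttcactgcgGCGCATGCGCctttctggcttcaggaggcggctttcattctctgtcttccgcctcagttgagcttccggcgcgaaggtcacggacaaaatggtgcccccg
A match describes letters in this window and is no evidence of binding in these livers.

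The authors' deposited table gave its own changes for numbered comparisons that its header does not name. The first followed livers labelled DKO against control livers gene by gene in log2 fold change (r = 0.96 across 11403 genes, which are no independent replicates). At an adjusted p under 0.05 in the authors' deposited table, 39 of 81 nuclear members were higher and 0 lower, 28 of them also called here, beside 4.50% of all genes higher, and 0 of 13 mitochondrial members were called. The second followed re-expression livers against livers labelled DKO (r = 0.94) and in the authors' deposited table called 0 of 77 nuclear and 0 of 13 mitochondrial members.

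Markers of other liver cells moved with the groups in part. The 6 stellate cell and fibroblast markers summed to 314 to 353 TPM in livers labelled DKO, 262 to 333 TPM in re-expression livers and 186 to 298 TPM in control livers, and Reln, Lrat and Dcn were called higher in livers labelled DKO. The 5 red blood cell markers summed to 399.9 to 686, 372 to 835 and 276 to 382 TPM in the same order of groups, with 0 called. The 7 Kupffer cell markers summed to 388 to 452, 332 to 947 and 372 to 887 TPM, with 0 called, and the 6 endothelial markers to 192 to 241, 126 to 199.2 and 162 to 179 TPM, with 0 called. Of 4 tested cholangiocyte markers Sox9 was called higher, and of 8 hepatocyte markers Cps1 and Ttr were, by 0.32 and 0.32. Fat cell markers summed to at most 1.24 TPM, with Adipoq at 0. The part of cell makeup in the changes of the nuclear members was not tested.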

How the data were processed

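Total RNA libraries of 12 mouse livers were sequenced, and the reads were processed on build mm10 with STAR 2.7.1a, featureCounts 2.0.1, DESeq2 1.36.0, SAMtools 1.9 and bcl2fastq 2.17, which are the names in the submitters' processing notes. Whether featureCounts used strand is not given here, and 30 of the 83 tested nuclear members overlap a gene on the opposite strand. The deposited table holds TPM per library, computed by the authors, with log2 fold changes and adjusted p-values of 3 numbered comparisons, also deposited by the authors. The third followed none of the group contrasts and was not used. Per the file headers a gene length in bases is given, and TPM times the length less a fixed number of bases gave whole reads within a tolerance of 0.01 for 100% of values.

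TPM is not a count, so limma 3.58.1 in R 4.3.3 was run on log2(TPM + 1), which understates changes of low genes. It fitted 3 group means to 12 libraries (9 residual degrees of freedom) for genes with a mean of at least 1 TPM. The test was two-sided, with Benjamini-Hochberg adjustment over all tested genes of a comparison. Members and lists were chosen with earlier results of these data known. Values are named for the 15 called members of smallest p, the 2 nuclear members of highest TPM per complex, tissue isoforms, mitochondrial members and up to 4 genes of smallest p per other list, and Uqcrc2, Sdhc, Cox7a2l, the pseudogenes and the nuclear copies were chosen for display after their values were seen. The values of 1 called member are not reported here, though it is counted. Alternatives were another pseudocount of 0.1, other filters, scalings and library sets, array weights and a replicate block. Those added after the data were seen were voom on recovered reads, removal of a trend with GC content, and leaving out pairs of control livers. For the ratio of sums, leaving out mt-Atp8 and adding the nuclear copies were also added then. Deviations of re-expression and control libraries with the same replicate number correlated across genes (0.19, 0.10, 0.12 and 0.14). Libraries of different number were not compared, so whether the numbers pair livers was not tested. Between these 2 groups the block left 0 calls among the nuclear members. Shared windows and promoter letters were searched, and the listed copies aligned, with Python 3.11.15 in GENCODE M21 transcripts and RefSeq promoters (Biopython 1.88). Figures were drawn with matplotlib 3.10.9. The fitting was tested on simulated data.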

Additional observations from a re-analysis of the deposited data

Results flagged for a closer look

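Among 111 groups of 4 livers that were checked for a single library far from the others, 3 stood out by Dixon's criterion, and chance alone marks about 1 in 20 such groups. Cox7b was lowest in re-expression liver 3, at 257.6 TPM, against 284 to 288 TPM in the other re-expression livers. mt-Co2 was also lowest in re-expression liver 3, at 517 TPM, against 618 to 638 TPM in the others. mt-Atp8 was lowest in the liver labelled DKO 1, at 2547 TPM, against 3833 to 3913 TPM in the others, a gene that rests on a mean of 39.2 reads per library.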

How the results depend on the processing

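Between livers labelled DKO and control livers, the count of nuclear members called, 29 as reported, was 9 with the 8 libraries of that comparison alone and 8 to 32 when each library was left out in turn. It was 17 without control livers 1 and 2 and 23 without control livers 3 and 4, 2 alternatives added after the data were seen, and 22 with no filter on low values. Other settings gave 25 to 31, among them 29 with voom on recovered reads. Fewer libraries leave fewer residual degrees of freedom, so part of these losses follows from the setting itself. With the replicate number as a block the count was 18. Deviations of livers labelled DKO did not correlate positively with those of livers of the same number in the other groups. Whether the numbers pair livers was not tested. The block changed no call count of the nuclear members in the other 2 comparisons. In re-expression livers against control livers 1 nuclear member (Uqcrc2) was called after removal of the GC trend, and the cause was not tested. The mean ratios of mitochondrial over nuclear sums without 7 mitochondrial genes were 0.587, 0.632 and 0.731 in livers labelled DKO, re-expression livers and control livers, by construction lower than with them, and the group order was kept. These 7 genes are not the same set as the genes with a listed nuclear copy. Uqcr11 turned to -0.094 without control livers 1 and 2. Called in all 26 settings were Ndufb9, Ndufb3, Atp5b, Atp5mpl, Cox7a2 and Sdha. Mitochondrial members gave 0 calls in every setting and comparison run. Depth limits members with few reads, among them Ndufa4l2 with 1 to 11 reads per library, Cox7a1 with 2 to 7 and Cox6c2 with a mean of 13, and intervals from reads would cover counting error only.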

Other observations

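Ndufb1-ps was dropped with the other names that carry the pseudogene suffix, although RefSeq lists this name as a synonym of the protein-coding complex I gene Ndufb1. It measured 121, 131, 120.1 and 117 TPM in livers labelled DKO, 118, 116, 106 and 107 TPM in re-expression livers and 114, 113, 88.1 and 109.8 TPM in control livers. Its change in livers labelled DKO was 0.21 ± 0.086 on the log2 scale against control livers (SE; limma adjusted p = 0.225), which was not called. The nuclear copy Gm29216, which covers part of mt-Co1, measured 1039, 1382, 1307 and 1313 TPM in livers labelled DKO, 1008, 1191, 1005 and 1126 TPM in re-expression livers and 981, 888, 1034 and 1007 TPM in control livers. Every liver labelled DKO lay above every control liver for this copy, with a change of 0.36 ± 0.097 (adjusted p = 0.0553), beside -0.082 ± 0.081 for mt-Co1 itself. Both genes were chosen after their values were seen.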
